A study of Mus musculus with 11 samples.

Results

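YAP/TEAD target genes are described here across mouse embryonic stem (ES) cells on plastic, in soft gels and with added plakoglobin. The 9 genes were chosen by name: Ccn1 (also Cyr61), Ccn2 (also Ctgf), Ankrd1, Amotl2, Ajuba, Lats2, Axl, Tgfb2 and F3. They are 9 of the 21926 to 23139 named genes in each single-cell table. The bulk table lists 12588 genes, among them 6 of the 9. Ankrd1, Axl and Tgfb2 are not among them.

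The study asked how growth in agarose microgels changes ES cells and what plakoglobin, the junction protein encoded by Jup, does to their pluripotency. It holds 11 samples. Bulk Smart-seq2 libraries, each from about 1000 cells of the Rex1GFPd2 line, came from 3 microgel and 3 tissue-culture plastic samples, all in 2iLIF. Each of the 5 inDrop single-cell libraries is a different condition: E14 wild type on plastic with serum/LIF, the same line in agarose microgels with serum/LIF, E14 on plastic with 2iLIF, and PGLOW and PGHIGH cells on plastic with serum/LIF. PGLOW and PGHIGH cells are labelled as overexpressing plakoglobin at a low and a high level from the constitutive CAG promoter. Their parent line is not named, nor whether each is 1 clone. All groups received LIF, a cytokine that supports self-renewal. The medium 2iLIF adds inhibitors of MEK and GSK3 and holds ES cells in the naive state, while serum/LIF leaves them in a mixed one.

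YAP and its relative TAZ (Wwtr1) are coactivators that enter the nucleus when cells spread on stiff surfaces or when actin tension is high. There they bind TEAD proteins and raise transcription of genes such as the 9 studied here. The Hippo kinases, with Lats2 among them, phosphorylate YAP and TAZ and keep them in the cytoplasm, and several targets encode inhibitors of YAP, which makes a feedback loop.

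Cells were barcodes with at least 1000 UMIs (unique molecular identifiers, which count captured transcripts). This gave 725 wild-type cells in serum/LIF, 2889 in 2iLIF, 112 in gel, 1200 of the library labelled JupLow and 2153 of the library labelled JupHigh, with medians of 1731.5 to 2465 UMIs. Jup itself was at 36.7 CPM (UMIs scaled to the library total) in wild-type serum cells, 37.9 in JupLow and 47.8 in JupHigh, with overlapping intervals. Whether transcripts made from the CAG promoter were counted as Jup is not given in the sources used here, so these levels may not include it. These libraries are therefore called by their labels. Summed ES cell markers stood at 1624 to 3237 CPM in all 5 libraries. The libraries shared 0 barcodes. The deposited gel table ends inside a row, after 16994 of 21938 values, and its barcodes, which are in alphabetical order, all begin with A, whereas the other tables run to T. The wild-type serum table treats genes with shared exons differently: Sox2, an ES cell marker, has 0 UMIs there against 39 to 2029 in the other libraries. Of genes with at least 20% of their exonic bases shared, 18.9% were at least 8-fold higher in JupLow than in wild-type serum, against 1.597% of genes sharing none. With 1 library per condition there is no test of any single-cell difference, and the intervals given cover counting error only.

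The 9 genes together made up 659 CPM of wild-type serum cells (95% exact Poisson interval 624 to 695), 578 of JupLow (551 to 607), 301 of gel cells (235 to 379), 238 of JupHigh (224 to 253) and 113 of 2iLIF cells (106 to 120). Wild-type serum and JupLow cells were thus highest and 2iLIF cells lowest. The intervals of gel and JupHigh overlapped. Barcodes under 500 UMIs, where shallow cells and free RNA cannot be told apart, held 786 CPM in wild-type serum, 536 in JupLow, 236 in gel and 275 in JupHigh. In 2iLIF only 1 such barcode was deposited.

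Among the genes for secreted and cell surface proteins, Ccn1 (chromosome 3, 145646976 to 145649981, minus strand; all positions are in GRCm38 with GENCODE M21) encodes a matrix-associated protein that binds integrins. It stood at 148 CPM in wild-type serum cells, 102 in JupLow, 33.9 in gel, 24.1 in JupHigh and 7.001 in 2iLIF. No 2 neighbours in that order had overlapping intervals except gel and JupHigh.

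Ccn2 (chromosome 10, 24595442 to 24598683, plus strand), a related matrix protein, stood at 111.5 CPM in wild-type serum, 85.8 in JupLow, 59.3 in gel, 45.9 in JupHigh and 5.43 in 2iLIF. Among neighbours in that order, the intervals of gel overlapped those of JupLow and JupHigh, and the others did not overlap. Exons of Ccn2 overlap the antisense gene Gm15270 over 23.2% of their bases, and Gm15270 itself had 0 to 11 UMIs per library against 14 to 247 of Ccn2.

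F3 (chromosome 3, 121723537 to 121735048, plus strand), which encodes tissue factor, the trigger of blood clotting, stood at 113 CPM in wild-type serum, 75.7 in JupLow, 11.4 in JupHigh, 4.23 in gel and 4.10 in 2iLIF. The gel value rests on 1 UMI, so its place beside JupHigh and 2iLIF is not settled at this depth.

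Axl (chromosome 7, 25757273 to 25788705, minus strand), a receptor tyrosine kinase, stood at 16.3 CPM in JupLow, 14.9 in wild-type serum, 2.29 in 2iLIF and 0.696 in JupHigh. The ligand gene Tgfb2 (chromosome 1, 186622792 to 186705989, minus strand) stood at 20.2, 13.9, 1.57 and 1.39 CPM in the same order. For both, JupLow and wild-type serum overlapped, as did 2iLIF and JupHigh, while the higher and the lower pair did not. Neither had a UMI in gel cells, which allows up to 12.7 CPM (3 UMIs of that library's total).

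The nuclear cofactor gene Ankrd1 (chromosome 19, 36111961 to 36120099, minus strand) stood at 18.8 CPM in wild-type serum, 3.47 in JupLow and 1.86 in JupHigh, the last from 8 UMIs in 4 cells. It had 0 UMIs in gel, and no column in the 2iLIF table. That table lists no gene at 0 over its barcodes, so Ankrd1 was taken as 0 there, which allows up to 0.362 CPM. Wild-type serum lay above both JupLow and JupHigh, which overlapped. The gel library allows up to 12.7 CPM and cannot be placed.

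Amotl2 and Ajuba, genes for cytoplasmic regulators of the pathway, had a narrower range. Amotl2 (chromosome 9, 102716672 to 102733418, plus strand) encodes an angiomotin that binds and retains YAP. Its levels were 116 CPM in JupLow, 107 in wild-type serum, 59.3 in gel, 56.4 in JupHigh and 49.2 in 2iLIF. Ajuba (chromosome 14, 54567472 to 54577558, minus strand) encodes a LIM protein that binds LATS kinases at junctions. It stood at 146 CPM in JupLow, 144 in gel, 131 in wild-type serum, 90.9 in JupHigh and 40.6 in 2iLIF. For Amotl2, wild-type serum and JupLow overlapped, as did JupHigh and 2iLIF, and gel overlapped all but JupLow. For Ajuba the 3 highest overlapped, and 2iLIF lay below all others. Both genes stayed above 40 CPM in 2iLIF, where Ccn1, Ccn2 and F3 were each under 10.

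The kinase gene Lats2 (chromosome 14, 57689662 to 57758388, minus strand) is uncertain, because 42.4% of its exonic bases are shared with Gm49361 on the same strand. It had 36 UMIs in JupLow, 23 in JupHigh, 20 in 2iLIF and 1 in wild-type serum, where Gm49361 had 39. Summed, a step chosen after seeing these values, the pair stood at 19.8 CPM in wild-type serum, 14.6 in JupLow, 8.12 in JupHigh and 6.16 in 2iLIF. The sum puts wild-type serum first, whereas Lats2 alone puts it last among these 4 libraries.

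**Figure D1:**
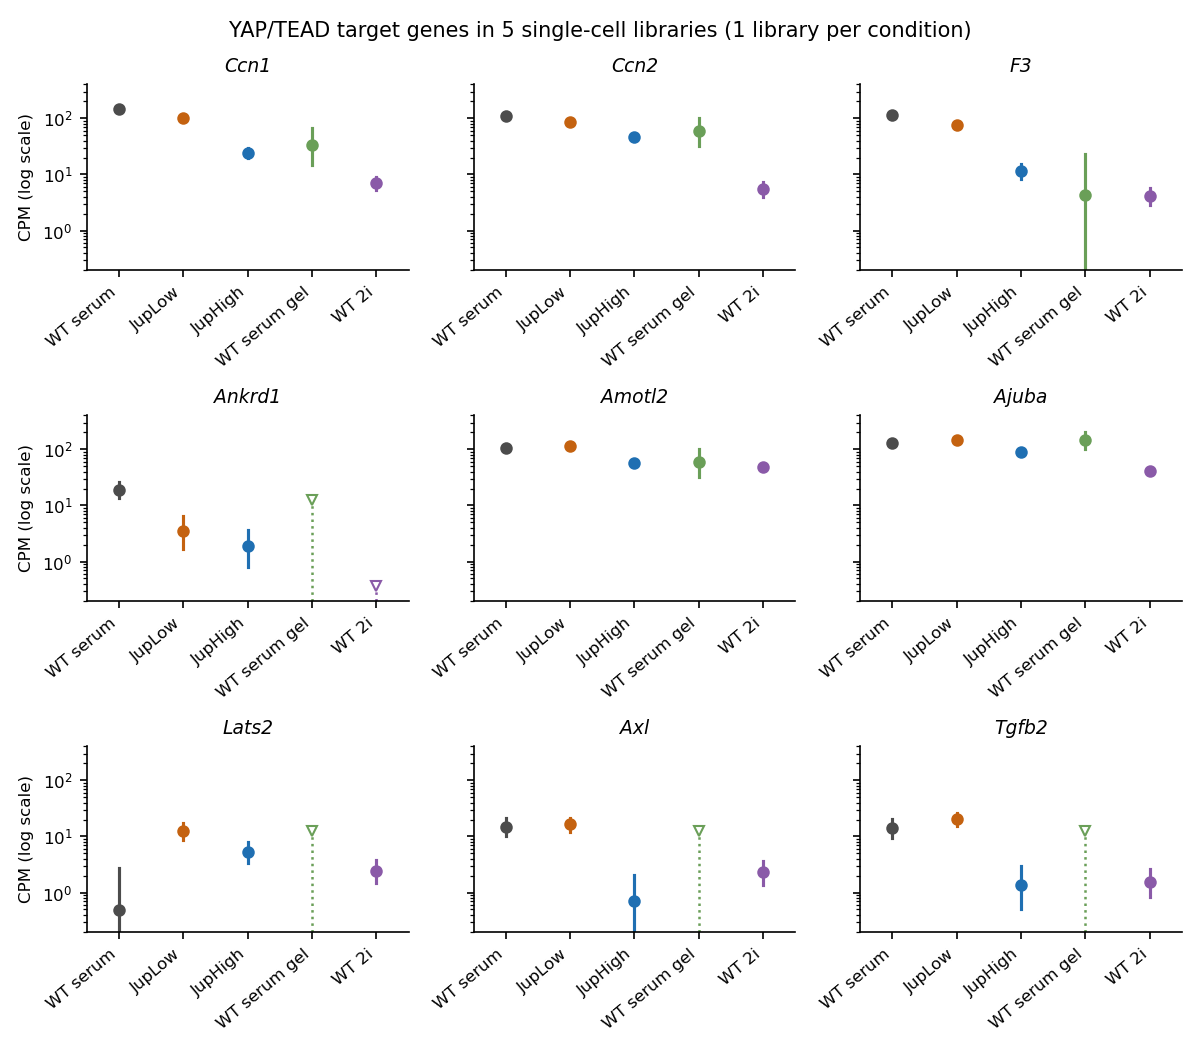
CPM of each gene (log axis) in the wild-type (WT) serum, JupLow, JupHigh, wild-type gel and wild-type 2i libraries, with 95% exact Poisson intervals as bars; an open triangle marks 0 UMIs, drawn at the level 3 UMIs would give. Ccn1, Ccn2 and F3 span a wider range than Amotl2 and Ajuba, and the 2i library is under 10 CPM for those 3.

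The make-up of the set differed between libraries as a result. Amotl2 and Ajuba gave 43.7% and 36.0% of the 9 genes' UMIs in 2iLIF, and 16.3% and 19.9% in wild-type serum. Ccn1, Ccn2 and F3 gave 22.5%, 16.9% and 17.2% in wild-type serum, and 6.22%, 4.82% and 3.64% in 2iLIF. In JupHigh, Ajuba gave 38.2% and F3 4.78%, near the 2iLIF shares, while Ccn2 gave 19.3%, above its wild-type serum share. Amotl2 gave 23.7% and Ccn1 10.1% in JupHigh, each between its 2iLIF and wild-type serum shares.

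Sequences before the RefSeq start sites of the genes show what some of them share apart from their levels. Windows of 250 bases before the RefSeq start site (GRCm38.p6) were available for 8 of the 9 genes, with 2 windows for Lats2, and were searched on both strands for GGAATG (reverse complement CATTCC), the core letters bound by TEAD proteins. It occurred in 5 of these 9 windows, against 12.6% of 32851 mouse windows of that length. Ajuba and Ankrd1 held 2 matches each, as did 1.02% of all windows (2 or more). Tgfb2, F3 and both Lats2 windows held none of these letters. RefSeq and GENCODE M21 starts differ for some genes. The windows of Amotl2, Ankrd1 and Lats2 lie inside the GENCODE gene positions given above. The windows of Ccn1 and Ajuba are shown whole, as examples with 1 and 2 matches from a gene that varied widely and one that varied less. For Amotl2, Axl and Ankrd1 only the matches and their flanks are shown. Capitals mark the match, and each run reads 5′ to 3′ along the strand of its gene.
Ccn1, 250 bases: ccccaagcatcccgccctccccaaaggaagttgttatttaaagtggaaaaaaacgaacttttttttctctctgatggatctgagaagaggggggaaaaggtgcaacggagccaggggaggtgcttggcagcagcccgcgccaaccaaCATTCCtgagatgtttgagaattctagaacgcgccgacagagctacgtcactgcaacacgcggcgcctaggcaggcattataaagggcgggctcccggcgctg
Ajuba, 250 bases: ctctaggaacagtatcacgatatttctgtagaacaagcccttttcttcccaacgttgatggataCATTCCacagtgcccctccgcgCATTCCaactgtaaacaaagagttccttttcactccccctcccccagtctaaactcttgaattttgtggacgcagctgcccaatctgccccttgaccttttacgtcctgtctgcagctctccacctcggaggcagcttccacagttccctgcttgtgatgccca
Amotl2, 30 bases: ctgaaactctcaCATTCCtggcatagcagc
Axl, 30 bases: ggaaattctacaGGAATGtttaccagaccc
Ankrd1, 30 bases around the farther match: gtcactgccaaaGGAATGaccctctcacat
Ankrd1, 30 bases around the nearer match: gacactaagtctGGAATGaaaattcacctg
The Ccn1 window is chr3:145649986-145650235 and the Ajuba window chr14:54577662-54577911, both on the minus strand. The stretch of Amotl2 is chr9:102717727-102717756 on the plus strand and that of Axl chr7:25788949-25788978 on the minus strand. Those of Ankrd1 are chr19:36120037-36120066 and chr19:36119950-36119979, on the minus strand. The first base of the match lay 103 bases before the start in Ccn1, 186 and 164 in Ajuba, 65 in Amotl2, 233 in Axl, and 210 and 123 in Ankrd1. The letters occur in genes with wider differences (Ccn1, Axl, Ankrd1) and with narrower ones (Amotl2, Ajuba). A match is a stretch of letters, and binding was not measured.

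Between the PGHIGH and PGLOW cells, every gene of the set was lower in JupHigh. The log2 ratios of JupHigh to JupLow, with 95% exact conditional intervals, were -2.08 for Ccn1 (-2.41 to -1.75), -2.74 for F3 (-3.21 to -2.28) and -0.90 for Ccn2 (-1.18 to -0.63). They were -4.55 for Axl (-6.88 to -2.92), from 3 UMIs against 47, and -3.86 for Tgfb2 (-5.36 to -2.65), from 6 against 58. Amotl2 stood at -1.04 (-1.29 to -0.80), Ajuba at -0.69 (-0.89 to -0.48) and Lats2 at -1.23 (-2.05 to -0.43). For Ankrd1 the ratio was -0.90, with an interval of -2.45 to 0.59 that includes 0.

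A mean of at least 10 CPM over the libraries was reached by 5 of the 9 genes, namely Ccn1, Ccn2, F3, Amotl2 and Ajuba, and by 8969 genes in all. Of these 5, 3 were at least 2-fold lower in JupHigh than in JupLow and 0 were at least 2-fold higher. Across the 8969 genes, 7.99% were at least 2-fold lower and 2.83% at least 2-fold higher. The median log2 ratio was -1.04 for the 5 and -0.11 for all. The 3 were F3, Ccn1 and Amotl2, and Amotl2 was no longer past 2-fold in 2 steps chosen after seeing the data. It stood at -0.997 (-1.25 to -0.75) without cells carrying 2 or more endoderm marker UMIs, and at -0.59 (-0.88 to -0.30) without those carrying keratins. Over the 8 other settings of UMI minimum, scaling, filter and pseudocount, the median of the targets lay between -1.08 and -0.78.

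By the median of the 5 genes, wild-type cells in 2iLIF and in serum/LIF differed most among the comparisons made. All 5 of these genes were at least 2-fold lower in 2iLIF (13.8% of all genes, and 11.0% higher), with a median of -4.36 against -0.02 over all genes. For Amotl2 this depended on the cells included. Its log2 ratio was -0.84 (-1.10 to -0.57) without cells carrying 2 or more endoderm marker UMIs, and -0.45 (-0.77 to -0.11) without those carrying keratins. Over all cells the log2 ratios were -4.78 for F3 (-5.35 to -4.26), -4.40 for Ccn1 (-4.84 to -3.99), -4.36 for Ccn2 (-4.86 to -3.89), -1.69 for Ajuba (-1.93 to -1.45) and -1.12 for Amotl2 (-1.36 to -0.88). Axl and Tgfb2 were 6.48-fold and 8.84-fold lower in 2iLIF, and Ankrd1 was at least 52.0-fold lower, taking 3 UMIs as the floor. Ccn1, Ccn2 and F3 were under 10 CPM in 2iLIF and reached a mean of 10 CPM through the other libraries. The same filter was used for all genes. It admits genes low in 2iLIF alone more readily than genes high there alone, so the count and median of the 5 partly depend on it.

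JupHigh against wild-type serum gave 3 of 5 genes at least 2-fold lower (12.5% of all genes, and 8.55% higher): Ccn1 at -2.62, F3 at -3.31 and Ccn2 at -1.28. Amotl2 at -0.93 and Ajuba at -0.52 were lower by less. Ccn2 was no longer past 2-fold in 2 steps chosen after seeing the data. It stood at -0.89 (-1.23 to -0.56) without cells carrying 2 or more endoderm marker UMIs, and at -0.73 (-1.10 to -0.35) without those carrying keratins. With both lists summed, Ccn1 stood at -1.08 (-1.56 to -0.58) and F3 at -2.16 (-2.95 to -1.39). JupLow against wild-type serum gave 0 of 5 past 2-fold, where 5.35% of all genes were lower and 6.54% higher by that much. Ccn1 (-0.54), Ccn2 (-0.38) and F3 (-0.58) were lower in JupLow with intervals below 0, while the intervals of Amotl2, Ajuba, Axl and Tgfb2 included 0. Without cells carrying 2 or more UMIs of primitive endoderm markers, a step chosen after seeing the data, Ccn1 was higher in JupLow, at 0.53 (0.22 to 0.85), with 98.2 CPM against 68.1. In that step Ccn2, at 0.18 (-0.13 to 0.49), and F3, at 0.02 (-0.30 to 0.34), no longer differed beyond counting error. Over all cells the interval of Ankrd1, at -2.44 (-3.61 to -1.41), lay below those of the 7 genes. Without the endoderm marker cells Ankrd1 stood at -1.39 (-2.68 to -0.18), from 10 against 17 UMIs, and overlapped Axl (-0.89 to 0.58). Amotl2 was then higher in JupLow, at 0.32 (0.04 to 0.60). Lats2 is not compared here because of its shared exons.

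Set against 2iLIF cells, JupHigh cells were at least 2-fold higher for 4 of the 5 genes (5.54% of all genes, and 5.51% lower). Ccn2 was 8.46-fold higher, Ccn1 3.45-fold, F3 2.77-fold and Ajuba 2.24-fold. The F3 difference was no longer beyond 2-fold, nor beyond counting error, in 2 steps chosen after seeing the data. Its log2 ratio was 0.64 (-0.15 to 1.42) without cells carrying 2 or more endoderm marker UMIs, and 0.61 (-0.18 to 1.38) without those carrying keratins. Amotl2, at a log2 ratio of 0.19 (-0.04 to 0.43), and Tgfb2, at -0.17 (-1.86 to 1.32), did not differ beyond counting error. Axl stood lower in JupHigh, at -1.72 (-4.12 to 0.04), on 3 UMIs against 19, with an interval that includes 0. Ankrd1 had 8 UMIs in JupHigh and 0 in 2iLIF. These comparisons share libraries, so their ratios are not independent of each other.

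In gel against plastic in serum/LIF, 2 of the 5 genes were at least 2-fold lower in gel (13.3% of all genes, and 8.84% higher): Ccn1 at -2.13 (-3.35 to -1.13) and F3 at -4.74 (-10.05 to -2.25). Ccn2 (-0.91, -1.81 to -0.13) and Amotl2 (-0.85, -1.75 to -0.07) were lower by less, and Ajuba (0.14, -0.42 to 0.66) did not differ beyond counting error. These rest on 71 UMIs of the 9 genes in the gel cells. The Ccn1 difference was no longer beyond 2-fold, nor beyond counting error, at -0.98 (-2.22 to 0.05) without cells carrying 2 or more UMIs of primitive endoderm markers, -0.82 (-2.07 to 0.22) without those carrying keratins, and -0.26 (-1.54 to 0.81) with both lists summed. In that last step F3 had 0 UMIs in gel, against 27.3 CPM on plastic, and Ccn2 stood at -0.20 (-1.21 to 0.68). Line and medium are the same in this pair. The number of cells, the completeness of the table and the treatment of genes with shared exons are not. Of genes with at least 20% of their exonic bases shared, 18.35% were at least 8-fold higher in gel and 4.771% lower. Of genes sharing none, 1.788% were higher and 1.319% lower by that much. The shares of all genes given here include genes with shared exons.

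The target genes were unevenly spread over the cells. Cells were thinned to 1000 UMIs each, so that depth did not set the shares. At least 1 UMI of any of the 9 genes was then found in 35.9% of wild-type serum cells (95% exact binomial interval 32.4 to 39.5%), 34.6% of JupLow (31.9 to 37.4%), 28.6% of gel (20.4 to 37.9%), 18.1% of JupHigh (16.5 to 19.8%) and 9.62% of 2iLIF cells (8.57 to 10.8%). Unthinned, the shares were 60.0%, 54.8%, 35.7%, 32.0% and 24.96%. No cell type known to lack these genes was available to set a background, and free RNA was not tested as a source.

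Some of the genes were concentrated in few cells. The variance over the mean of thinned UMIs, which is close to 1 for a gene spread at random, was 2.29 for Ccn1, 1.63 for Ccn2 and 1.56 for F3 in wild-type serum. It was 1.11 for Amotl2 and 1.12 for Ajuba there, where the median gene had 1.00 and the 90th percentile was 1.17. In JupLow the values were 1.44 for Ccn1, 1.84 for Ccn2, 1.33 for F3 and 1.65 for Axl, against 1.01 for Ajuba. In JupHigh they were 1.86 for Ccn2 and 2.19 for F3, and 1.06 for Ccn1. The highest thinned count in a JupHigh cell was 9 of 99 UMIs for Ccn2 and 5 of 30 for F3, so these values may rest on few cells. A single wild-type serum cell held 81 UMIs of the set before thinning.

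For some pairs, one gene was detected more often in cells with the other than in cells without it. Of the 53 wild-type serum cells with Ccn1, 26.4% also had F3 (15.3 to 40.3%), against 6.55% of cells without Ccn1 (4.80 to 8.69%), and 18.9% also had Ccn2 (9.44 to 32.0%), against 7.29% (5.44 to 9.53%), where the intervals overlap slightly. In JupLow, 8.42% of cells with Ccn1 had F3 (3.71 to 15.9%), against 5.61% of the others (4.33 to 7.14%), with overlapping intervals. There 14.7% of cells with Ccn1 had Ccn2 (8.30 to 23.5%), against 5.25% (4.01 to 6.73%), and 24.2% had Amotl2 (16.0 to 34.1%), against 8.60% (7.01 to 10.4%). In JupHigh, 12.8% of cells with Ccn1 had F3 (4.83 to 25.7%), against 0.712% (0.399 to 1.17%). For Ajuba, 3.45% of wild-type serum cells with F3 had it (0.420 to 11.9%), against 12.9% of the others (10.4 to 15.7%), and in JupLow 17.1% (9.18 to 28.0%), against 12.7% (10.9 to 14.8%), with overlapping intervals in both. Among cells with Ccn2 it was found in 11.9% in wild-type serum (4.91 to 22.9%), against 12.2% (9.78 to 14.9%), and in JupLow in 23.6% (14.4 to 35.1%), against 12.3% (10.5 to 14.4%), where the intervals meet. In JupHigh it was found more often with each of the 3 genes, in 17.0% of cells with Ccn1 against 8.17%, 14.1% with Ccn2 against 8.12% and 23.8% with F3 against 8.21%, with overlapping intervals. No test was made over cells, and overlap of separate intervals does not show that shares are alike.

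In the 3 serum libraries on plastic, cells rich in target UMIs were also rich in transcripts of the contractile list. It holds 19 actin, contractile and SRF/MRTF genes, where MRTF is the actin-sensing cofactor of SRF. Actb alone gave 4127 of the list's 9571 CPM in wild-type serum, and Egr1 and Fos are also in it. Cells with 3 or more thinned target UMIs numbered 27 in wild-type serum, 58 in JupLow, 19 in JupHigh, 1 in gel and 0 in 2iLIF. The contractile list summed to 16590 CPM in those of wild-type serum and 7701 in cells with none. In JupLow the values were 22690 and 6953 CPM, and in JupHigh 9684 and 3872. In gel the list stood at 5338 CPM in cells with no target UMI and 6154 in the 26 cells with 1. It stood at 3000 CPM in the 5 gel cells with 2 and 4000 in the 1 with 3 or more. In 2iLIF the list also rose, from 3339 CPM in cells with no target UMI to 4051 with 1 and 5045 in the 22 cells with 2.

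Markers of other cell types moved with the target UMIs in the same cells. The 4 keratins of simple epithelia (Krt7, Krt8, Krt18 and Krt19) summed to 2148 CPM in target-rich wild-type serum cells and 546 in cells with no target UMI, to 3086 and 510 in JupLow, and to 790 and 10.2 in JupHigh. The 8 primitive endoderm markers, the list of the extraembryonic lineage that includes Gata6, Gata4 and Sox17, summed to 4667 and 206 CPM in wild-type serum and to 1789 and 49.4 in JupHigh. In JupLow they stood at 69.0 and 38.2. A keratin UMI was found in 74.1% of the target-rich cells of wild-type serum and 72.4% of those of JupLow, but in 21.1% of the 19 of JupHigh, where 15 UMIs make up the keratin value. The 6 ES cell markers stood at 889 CPM in target-rich cells against 1680 in wild-type serum, and at 983 against 1959 in JupLow. In JupHigh they stood at 2474 CPM, from 47 UMIs, against 3145 in cells with no target UMI, and were at 3554 and 3691 CPM in cells with 1 and 2. The 7 fibroblast feeder markers summed to 37.0 against 36.6 CPM in wild-type serum, 207 against 12.7 in JupLow and 52.6 against 3.97 in JupHigh. In the target-rich cells these values rest on 1 UMI in wild-type serum, 12 in JupLow and 1 in JupHigh. Lum had 0 UMIs in each library. The part of these cell types in the target levels was not tested beyond leaving out cells by keratin and endoderm UMIs.

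**Figure D2:**
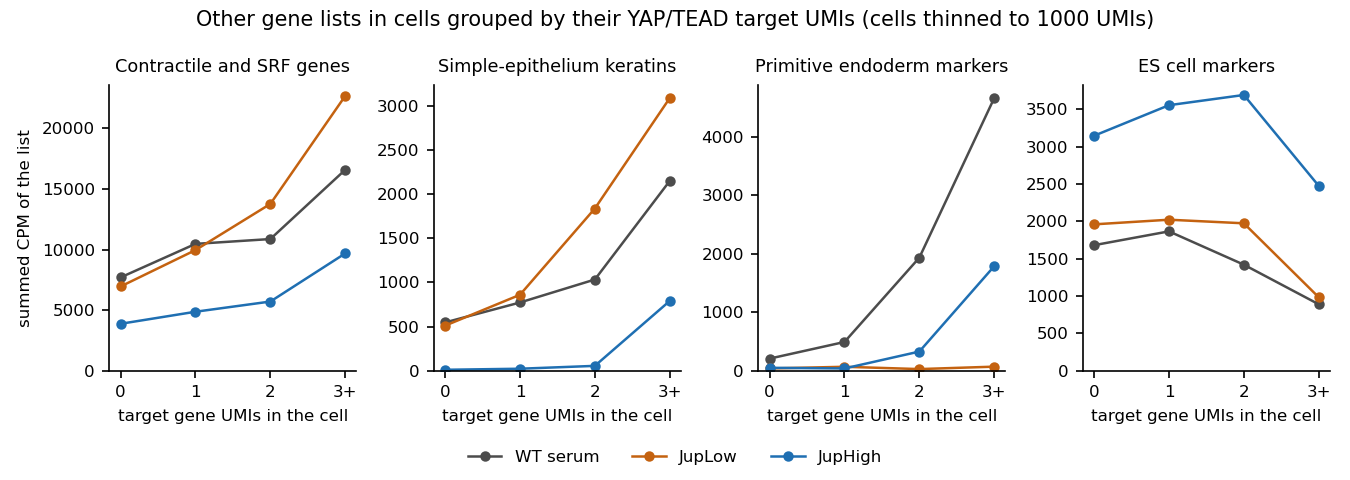
Summed CPM of 4 other gene lists (y axes, each starting at 0) in cells with 0, 1, 2 or 3 and more UMIs of the 9 genes, for 3 serum libraries on plastic, after thinning to 1000 UMIs per cell. The contractile list is highest in cells with 3 or more target UMIs in each library, and the endoderm list is high there in wild type (WT) and JupHigh but not in JupLow.

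Single genes differed in the company they kept. In wild-type serum, endoderm markers were 9.01 times as high in cells with Ccn1 as in cells without, 9.17 times with F3, 4.40 times with Amotl2 and 3.24 times with Ccn2, but 0.750 times with Ajuba. In JupLow, keratins were 3.71 times as high in cells with F3, 3.23 times with Ccn1, 2.78 times with Ccn2 and 2.17 times with Amotl2, and 1.04 times with Ajuba. Ajuba was thus the one gene of these 5 whose detection went with neither list in these libraries.

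Cells with such markers were unequally common. Cells with 2 or more keratin UMIs made up 22.1% of wild-type serum, 22.9% of JupLow, 4.46% of gel, 0.511% of JupHigh and 0.312% of 2iLIF cells. Cells with 2 or more endoderm marker UMIs made up 9.24% of wild-type serum, 3.57% of gel, and 1.02% to 1.18% of the other 3. When cells with 2 or more UMIs of both lists summed were left out (30.2% of wild-type serum, 24.5% of JupLow, 1.16% of JupHigh), a step chosen after seeing the data that removes deeper cells more often, the differences shrank for most genes but not for Ajuba. Against JupLow, JupHigh then stood at -1.24 for Ccn1 (-1.66 to -0.83), -2.22 for F3, -0.60 for Ccn2, -0.56 for Amotl2 and -0.68 for Ajuba. Axl went from 16.3 to 3.38 CPM in JupLow, and Tgfb2 from 20.2 to 5.80.

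All 10 Ankrd1 UMIs of JupLow lay in cells left out by the keratin rule, and all 8 of JupHigh in cells left out by either rule, the keratin or the endoderm one, alone. In wild-type serum 7 of 38 remained after the summed step. Between JupLow and wild-type serum the cells remaining after the summed step did not differ beyond counting error for Ccn1 (0.17, -0.30 to 0.65), Ccn2 (-0.13, -0.54 to 0.28) and F3 (0.06, -0.57 to 0.71). Against wild-type serum, 2iLIF cells then stood at -2.67 for Ccn1, -3.60 for Ccn2, -2.73 for F3 and -1.74 for Ajuba, while Amotl2 at -0.26 (-0.62 to 0.12) did not differ beyond counting error. JupHigh stood at -0.07 for Amotl2 against wild-type serum (-0.45 to 0.32), and at 0.57 for F3 against 2iLIF (-0.23 to 1.35), so neither differed beyond counting error. Amotl2 was then higher in JupLow than in wild-type serum, at 0.49 (0.089 to 0.90).

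**Figure D3:**
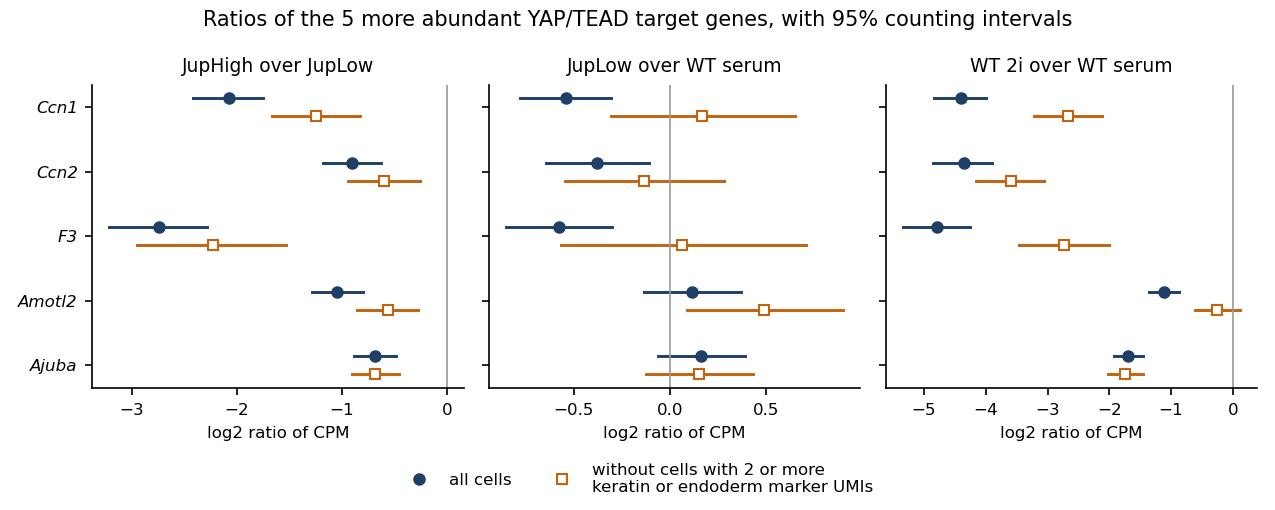
log2 ratios of CPM (x axes, with different ranges) for 5 genes in 3 comparisons, with 95% exact conditional intervals, over all cells (filled) and without cells with 2 or more UMIs of keratins and primitive endoderm markers summed (open); WT is wild type. Without those cells the ratios of Ccn1, F3 and Amotl2 move towards 0 in the first and last panels, and those of Ajuba stay within 0.05.

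Other genes of the pathway were read from lists, each over genes at 10 CPM or more. Of 20 Hippo kinases, scaffolds and adaptors, 5 were at least 2-fold lower in JupHigh than in JupLow and 0 higher, where 7.99% of all genes were lower and 2.83% higher by that much. The same shares stand beside the other lists. The angiomotins led, with Amotl1 at -3.75 (46.9 CPM in JupLow, 3.48 in JupHigh) and Amot at -2.95, followed by the phosphatase gene Ptpn14, also in the signature list, at -2.57, the scaffold Wwc2 at -1.35 and the protocadherin Fat1 at -1.31. Rassf1 stood at -0.95. Of 7 genes for YAP, TAZ, TEAD proteins and partners, 2 were at least 2-fold lower: the TEAD cofactor Vgll3 at -3.94 and Wwtr1 at -1.14. Yap1 itself stood at -0.40, with 87.9 CPM in JupLow and 66.6 in JupHigh, and Tead1 at -0.62, Tead4 at -0.87 and Tead2 at -0.95.

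Of 12 further genes from published YAP signatures, 4 were at least 2-fold lower, with Anxa1 at -3.38, Crim1 at -3.21, Ptpn14 at -2.57 and Igfbp3 at -2.38. Fjx1 stood at -0.96, and Sgk1 was higher in JupHigh, at 0.98. Of 18 contractile genes, 15 were at least 2-fold lower. Cnn1 stood at -8.05 (1 UMI in JupHigh), the actin-bundling gene Tagln at -6.91, smooth-muscle actin Acta2 at -5.97, Tpm2 at -4.74, Fhl2 at -4.08 and Cald1 at -3.74. The median log2 ratio was -2.43 for the contractile list, -0.85 for the signature genes, -0.87 for the YAP, TAZ and TEAD list and -0.64 for the Hippo list, beside -0.11 for all genes.

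Among the genes whose levels over the 5 libraries were most like those of the 9 genes summed, of 3427 genes at a mean of at least 50 CPM, were Ppp3ca, Spred1, Eif4g3 and Peg10. Their root mean square distances were 0.19 to 0.24 on the centred log2(CPM + 1) scale. Ppp3ca, which encodes a catalytic subunit of the phosphatase calcineurin, stood at 82.3 CPM in wild-type serum, 68.1 in JupLow, 50.8 in gel, 32.5 in JupHigh and 16.8 in 2iLIF.

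In the bulk libraries, where Jup rose in gel (log2 fold change 2.74, limma adjusted p = 5.94e-06), the target genes gave few reads, since 637235 to 2583256 reads were recovered per library. Of the 6 listed genes, 2 passed the filter on low reads and were tested. Amotl2 was higher in gel, with deposited values of 24.8, 31.9 and 31.6 in gel (mean 29.4 ± 4.01, SD, n = 3) and 17.0, 13.3 and 13.7 on plastic (14.7 ± 2.06, SD, n = 3). The groups did not overlap. On the log2(value + 0.5) scale, which understates changes of low genes, the difference was 0.98 with a standard error of 0.26 (limma, Benjamini-Hochberg, adjusted p = 0.00589). In bulk, more cells of a type and more RNA per cell cannot be told apart. The values rest on 22, 26 and 23 reads in gel and 41, 34 and 9 on plastic, and with all libraries thinned to the shallowest the call was lost (0.70, adjusted p = 0.0911 by limma).

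Ajuba did not pass the test, with values of 45.1, 35.6 and 44.0 in gel and 45.3, 33.3 and 48.6 on plastic. The groups overlapped, and the difference was -0.02 on the log2 scale (standard error 0.20, limma adjusted p = 0.956). Over all genes, 2906 of 7878 were called (36.9%), 18.3% higher and 18.6% lower in gel. With 2 target genes tested, nothing is read from their count beside that share.

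Ccn1 was at 3.39, 4.91 and 1.37 in gel and 8.73, 7.43 and 6.07 on plastic, without overlap, from 3, 4 and 1 against 21, 19 and 4 reads. It was too low for the filter, and when the filter was dropped its difference was -1.20 on the log2 scale (standard error 0.53, limma adjusted p = 0.109). Ccn2 (5.64, 3.68 and 10.99 in gel, 8.73, 10.2 and 7.59 on plastic), F3 (1.13, 1.23 and 10.99 in gel, 2.49, 2.74 and 0 on plastic) and Lats2 (1.13, 1.23 and 2.75 in gel, 1.66, 0.783 and 3.04 on plastic) overlapped between groups. None of Ccn1, Ccn2, F3 and Lats2 passed the filter, and no change was called in them.

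Genes for the coactivators and their TEAD partners rose in gel: 4 of the 4 tested genes of that list were called higher, beside 18.3% of all genes. Yap1 had values of 23.7, 28.2 and 22.0 in gel and 16.2, 7.83 and 6.07 on plastic, a log2 difference of 1.37 (standard error 0.35, limma adjusted p = 0.00486). Tead1 stood at 0.88 (adjusted p = 0.00168), Wwtr1 at 0.87 (adjusted p = 0.00352) and Tead2 at 0.72 (adjusted p = 0.00714), all by limma. Gel and plastic values did not overlap for any of these 4 genes. Each kept its call in all 15 alternatives that kept the threshold.

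**Figure D4:**
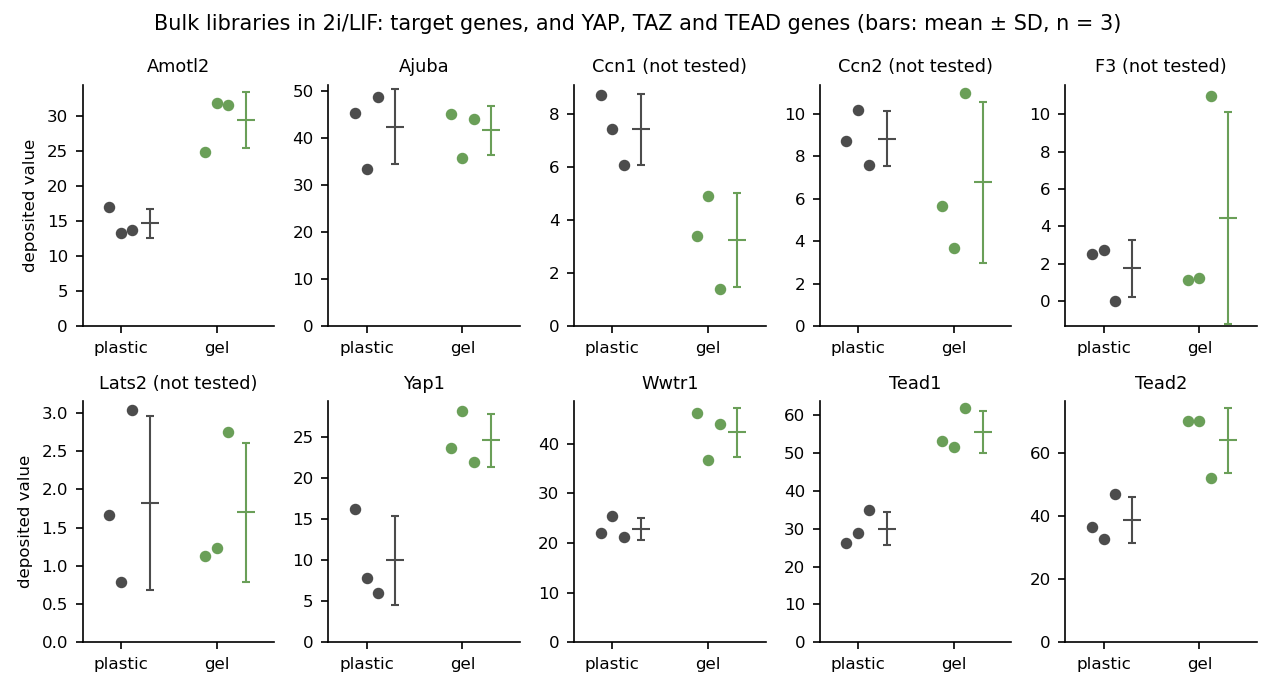
Deposited bulk values (y axes) of the 6 listed target genes and of Yap1, Wwtr1, Tead1 and Tead2 in 3 plastic and 3 gel libraries, as points, with mean ± SD beside them. Gel points lie above all plastic points for Amotl2 and for the 4 coactivator and TEAD genes, and below them for Ccn1.

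Of 11 tested Hippo kinases, scaffolds and adaptors, 2 rose in gel and 2 fell, beside 36.9% of all genes called in either direction, so the count is near the background. The kinase gene Map4k4 (0.92, adjusted p = 0.00979 by limma) and Nf2 (0.84, adjusted p = 0.0101 by limma), which encodes the scaffold merlin, were higher. Stk3 (-0.92, adjusted p = 0.00985 by limma), the MST2 kinase gene, and Taok1 (-0.39, adjusted p = 0.0486 by limma) were lower. Map4k4 lost the call without gel replicate 1 (0.74, adjusted p = 0.0578 by limma). With all libraries thinned to the shallowest, Nf2 (0.62, adjusted p = 0.109) and Stk3 (-0.69, adjusted p = 0.0849) lost it in limma. Taok1 lost it in 8 of 15 alternatives, among them those without gel replicates 1 and 2 and without each plastic replicate (adjusted p up to 0.169 by limma).

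Of 5 tested signature genes, 3 rose and 1 fell, beside 18.3% and 18.6% of all genes. Dock5 stood at 1.28, Myof at 1.06, Birc5 at 0.32 and Sgk1 at -0.37, with adjusted p of 0.0125, 0.00502, 0.0418 and 0.00521 by limma. Birc5 lost its call in 7 of 15 alternatives, among them those without gel replicates 2 and 3 and without plastic replicates 1 and 3 (adjusted p up to 0.149 by limma). Dock5 lost it without gel replicate 1 (1.09, adjusted p = 0.0695 by limma) and without plastic replicate 3 (0.94, adjusted p = 0.0562 by limma).

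Of 9 tested contractile and SRF genes, 5 rose and 1 fell, beside 18.3% and 18.6% of all genes. The bulk data list 11 of the 19 genes of this list. Acta2, Tagln, Myl9, Cnn1, Tpm2, Fhl2, Egr1 and Fos are not among them, so the bulk result does not cover them. The actin cross-linker Actn1 was highest at 2.38 (adjusted p = 2.37e-05 by limma), with values of 37.2, 28.2 and 42.6 in gel and 8.73, 6.65 and 4.55 on plastic. Cnn2 stood at 0.72, Flna at 0.61, Cald1 at 0.55 and Actb at 0.48, and Tpm1 at -0.72, with adjusted p of 0.0259, 0.00884, 0.0356, 0.00112 and 0.0238 by limma. Cnn2, Cald1 and Tpm1 lost their calls in 6, 7 and 5 of 15 alternatives, with limma adjusted p up to 0.0875, 0.144 and 0.141. Losses came without gel replicates 1 and 3 and plastic replicates 1 and 2 for Cnn2, without gel replicates 1 and 2 and each plastic replicate for Cald1, and without gel replicate 2 and plastic replicates 1 and 2 for Tpm1. The median log2 fold change was 0.48 for this list and 0.88 for the YAP, TAZ and TEAD list, beside -0.02 for all tested genes. Markers of fibroblast feeders are not among the listed genes, and Lama1 alone of the 8 endoderm markers is listed, higher in gel by 0.99 (limma adjusted p = 0.0117, and 0.0565 with DESeq2). Whether other cell types contribute to the bulk values was not tested.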

How the data were processed

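Bulk values are a signal, which the deposited numbers show to be gene counts divided by one factor per library, so whole reads were recovered (100% of values whole within 0.01 reads). The single-cell tables hold UMI counts per gene and barcode as deposited by the authors. The submitters' processing notes name FastQC, STAR, featureCounts, DESeq2, Scanpy, mm10 and GRCm38, without roles. Whether strand was used is not given in the sources used here. Bulk columns were matched to samples by name. Plastic replicate 2 has another number in its description, and its title was followed.

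Gel and plastic bulk libraries were tested in limma 3.58.1 (R 4.3.3, intensity trend, log2(value + 0.5)) on genes passing edgeR's expression filter, with Benjamini-Hochberg adjustment at 0.05. edgeR 4.0.16 and DESeq2 1.42.0 on the recovered reads were alternatives. Replicate chi-squares of 1.58 to 2.20 per degree of freedom found no duplicate library. Whether replicates were separate cultures is not stated, so p-values measure the spread between these samples. The fit was tested on simulated data.

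Barcodes with 1000 UMIs or more were cells, without a doublet caller. Left out were barcodes that begin and end in 8 or more G, 1 row cut short, and unnamed gene columns, which held 0.00509% to 0.499% of UMIs. Other UMI minimums, scalings, filters and pseudocounts were tried. Steps that leave out cells with keratin or endoderm UMIs, mitochondrial genes or genes with shared exons were chosen after seeing the data. Ratios are of library CPM, with intervals for counting error only. Python 3.11.15 was used.

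Members and gene lists were chosen with earlier results of these data known. Genes were named by rule: all 9 targets, and every called gene of the Hippo, signature and contractile lists in bulk. In single cells they were the 6 of each list with the largest absolute log2 ratio of JupHigh to JupLow. The 4 coactivator and TEAD genes are all those tested. Lists of trophoblast, mesendoderm, naive, formative and primed genes were also measured. One gene that the rule on likeness to the targets would name is not reported here.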

Additional observations from a re-analysis of the deposited data

Results flagged for a closer look

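Gel and plastic were compared in both assays, in 2iLIF bulk libraries of the Rex1GFPd2 line and in serum/LIF single cells of E14. Only the target genes and the Hippo, YAP, TAZ and TEAD, signature and contractile lists were searched. For 7 of their genes all bulk gel libraries lay above all bulk plastic libraries, whereas the single-cell gel library lay below plastic beyond counting error. The share of all genes that do so was not measured, so nothing is read from this count. The single-cell arm has 1 library per surface and 112 gel cells, so the difference between the assays was not tested, and medium, line and assay cannot be told apart.

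Amotl2, the one target gene among them, had a single-cell log2 ratio of -0.85 (14 against 216 UMIs), beside bulk means of 29.4 in gel and 14.7 on plastic. When cells with keratin and endoderm marker UMIs were left out, its ratio was 0.09 (-0.88 to 0.95). Tead1 had a single-cell ratio of -1.28, from 80.4 CPM in gel and 195 on plastic.

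The other 5 genes are from the contractile list. Their single-cell ratios were -0.62 for Actn1, -1.27 for Cnn2, -0.75 for Flna, -1.78 for Cald1 and -0.75 for Actb. Keratin-positive cells made up 4.46% of gel and 22.1% of plastic single cells, and their part in these ratios was not tested.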

How the results depend on the processing

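The count of 2906 bulk genes stayed within 1.5 times its value in every alternative except a required absolute log2 fold change of 1, which left 727. Leaving out one library gave 2361 to 2833, edgeR 3158 and DESeq2 2188. With the replicate number as a block 2988 genes were called. The numbers do not pair the samples (correlations of deviations between same-numbered libraries were -0.05, 0.02 and 0.02), and Amotl2 kept its call in the block fit.

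The single-cell medians over the 5 target genes moved by more than their counting error as follows, the cause not being tested. For JupHigh against JupLow the median was -0.78 over every deposited barcode, -0.67 without keratin cells and -0.68 without keratin and endoderm cells. For JupHigh against wild-type serum it was -0.89 without endoderm cells, -0.73 without keratin cells and -0.73 without both. For JupLow against wild-type serum it was -0.66 over every barcode, and it changed sign to 0.18 without endoderm cells and 0.15 without both. For 2iLIF against wild-type serum it was -3.02 at a mean of 50 CPM or more, where fewer genes enter, -3.25 without endoderm cells, -3.20 without keratin cells and -2.67 without both. Gel against plastic lay between -1.25 and -0.15 over all alternatives.

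Shares of cells with a target UMI depend on depth and on which cells enter: thinned to 2000 UMIs they were 50.7% in wild-type serum, 19.6% in 2iLIF, 40% in gel, 53.4% in JupLow and 34.5% in JupHigh, and unthinned 60.0%, 24.96%, 35.7%, 54.8% and 32.0%. Only cells with at least 2000 UMIs enter the first of these settings, so the 2 settings differ in cells as well as in depth. In the gel library 0 UMIs allow up to 12.7 CPM, so low target genes cannot be placed there.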

Other observations

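Sgk1, a kinase gene of published YAP signatures, ran against the target genes in several comparisons. It stood at 467 CPM in JupHigh, 278 in 2iLIF, 238 in JupLow, 171 in wild-type serum and 106 in gel, so the 2 libraries lowest for Ccn1 were the highest for Sgk1. In bulk it was lower in gel (599.5 ± 26.9 against 776 ± 55.9, SD, n = 3). It was singled out after its values were seen.

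Naive pluripotency genes, a list of 10 with Klf2, Klf4 and Esrrb among them, did not follow the target UMIs in one direction within the serum libraries. Target-rich cells held 926 CPM against 664 in cells with no target UMI in wild-type serum, 431 against 842 in JupLow and 2474 against 2657 in JupHigh. The values rest on 25, 25 and 47 UMIs in the target-rich cells. Between whole libraries they ran opposite to the targets where JupHigh was set against JupLow and 2iLIF against wild-type serum. Of 9 naive genes at 10 CPM or more, 8 were at least 2-fold higher in JupHigh than in JupLow (2.83% of all genes), with a median log2 ratio of 1.98. In 2iLIF 8 of 9 were higher than in wild-type serum by that much (11.0% of all genes), with a median of 2.26. This did not hold in JupHigh against 2iLIF, with medians of -0.05 for naive genes and 1.47 for the 5 targets. Nor did it hold in gel against wild-type serum, with medians of 0.01 and -0.91. Over whole libraries, trophoblast markers summed to 21.2 to 54.2 CPM, mesendoderm markers to 3.47 to 21.2 CPM, and formative and primed genes to 232 to 1084 CPM.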
